A study of Mus musculus with 20 samples.

Results

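The data describe splice junctions in which an annotated 3′ splice site was joined to a 5′ splice site that the authors' annotation did not hold. They were selected on 2 values, the authors' class of the junction and its reads. They were the junctions that the authors classed as having an annotated 3′ site and an unannotated 5′ site and that carried at least 100 reads summed over all 20 mice. There were 6244 of them, out of 99083 junctions of that class and 554616 junctions in all. They lay at 5051 3′ sites and used 5998 unannotated 5′ sites. The limit of 100 reads used the read counts of all groups together, so a junction read in a single group could pass through that group alone. Exactly 100 reads were carried by 66 of the junctions, and a further 61 junctions of the class stood just outside the limit with 99 reads.

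Introns are marked at their upstream end by the 5′ splice site, nearly always GT and sometimes GC, which pairs first with the U1 small nuclear RNA and later with U6. At their downstream end they are marked by the 3′ splice site, an AG whose recognition depends on the U2AF heterodimer, of which U2AF1 is the small subunit that contacts the AG and its neighbouring bases. The S34F substitution changes a serine in a zinc finger of U2AF1 and recurs in myelodysplastic syndromes and acute myeloid leukaemia. Sudemycin D6 binds SF3B1, a subunit of the U2 particle that recognizes the branch point upstream of the 3′ site. Neither U2AF1 nor SF3B1 is the factor that reads the 5′ site, and a change of 5′ site with a fixed 3′ site is seen at the far end of the intron. Of the 6244 junctions, 1801 had a 5′ site up to 500 bases downstream of an unannotated 3′ site. A further 342 had a 5′ site outside the genes of the strand. Whether their changes reflect the choice of 5′ site, the use of that 3′ site or another start of the RNA was not tested.

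Bulk bone marrow RNA came from 20 recipient mice in 4 groups of 5. All recipients were lethally irradiated wild-type congenic mice engrafted for over 6 weeks with pooled marrow of transgenic donors that carried rtTA and a doxycycline-inducible U2AF1 transgene, so the controls also expressed a transgene and doxycycline was given to every mouse. The groups were U2AF1(WT) with vehicle (Veh_WT), U2AF1(WT) with sudemycin D6 (Sud_WT), U2AF1(S34F) with vehicle (Veh_MUT) and U2AF1(S34F) with sudemycin D6 (Sud_MUT). Doxycycline chow of 625 ppm was given for 7 days, with drug or vehicle infused intravenously on the last 5 of them. The labels gave no age, and donors and recipients were matched for sex. The ribosomal RNA-depleted, stranded libraries were read as 126-base pairs, and junction reads summed to between 34384214 and 64813149 per mouse. All 10 libraries labelled U2AF1(WT) had Xist at 878.8 to 1593 CPM (counts scaled to a common library size) and all 10 labelled U2AF1(S34F) at 0.145 or less, so a difference between the genotypes and one between the sexes cannot be told apart. The summed level of 10 neutrophil markers, with none of them at 0, was 64150 to 72200 CPM in Veh_WT mice, 59580 to 104100 in Sud_WT mice, 85960 to 140000 in Veh_MUT mice and 73890 to 121300 in Sud_MUT mice, and its part in the splicing differences was not tested. In bulk marrow, fewer cells of a type and less RNA per cell cannot be told apart.

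The sequences of 5′ sites on which the results below turn are shown first, as 10 exon bases followed by 10 intron bases of the mouse genome (NCBI37/mm9) on the strand of the gene, with the first bases of the intron in capitals. The position in each name is the last exon base. At the 3′ site at position 36763309 of chromosome 3, plus strand, in 4932438A13Rik, the unannotated 5′ sites and the annotated 5′ site read:
unannotated, 36761063: aaggagacaaGTaagtgttc
unannotated, 36762201: gtgctgtcaaGTgagaggag
unannotated, 36762229: gctgcgcgcgGTgagggctg
annotated, 36762270: gcctttccggGTgagtctgg

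In 3 further genes called in both genotype comparisons, the unannotated 5′ site is followed by the main annotated 5′ site, that is, the annotated 5′ site with most reads at the same 3′ site:
Aoah, chromosome 13, plus strand, unannotated, 21089255: ctctccaggaGTaagtttca
Aoah, annotated, 21087363: tttgtaattcGTaagtcatt
Mdm4, chromosome 1, minus strand, unannotated, 134893331: tctctgaacgGCaagttacc
Mdm4, annotated, 134893140: taacaagaagGTatgtccca
Klra17, chromosome 6, minus strand, unannotated, 129824014: agatataatgGTaatcagaa
Klra17, annotated, 129824814: ggccacaaagGTaagtgttt

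In 3 genes called in both comparisons of vehicle and sudemycin, they read:
Gcnt1, chromosome 19, minus strand, unannotated, 17409817: tgctcaactgGTgagcttgc
Gcnt1, annotated, 17431047: caggctccagGTaacctagg
Prrc2c, chromosome 1, minus strand, unannotated, 164604230: ctaggtgttgGTaatgccac
Prrc2c, annotated, 164606822: tgcaccccagGTaggcagac
Morc3, chromosome 16, plus strand, unannotated, 93845293: tttttacttgGTactacact
Morc3, annotated, 93844571: aaatgctaagGTaaaaacgt

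The Mdm4 site opens its intron with GC, and the others shown open with GT. Of all 6244 junctions, 5920 (94.81%) began with GT, 319 (5.109%) with GC and 5 with AT. Among 123358 annotated 5′ sites in the same table, 98.86% began with GT and 0.8544% with GC. The aligner searches for unannotated introns only among GT-AG, GC-AG and AT-AC pairs, so these dinucleotides are in part fixed by the alignment. Each 5′ site was also scored on 9 bases, the last 3 of the exon and the first 6 of the intron, by the summed log2 ratio of the base frequencies at annotated 5′ sites to 0.25; the consensus of the annotated sites was CAGGTAAGT. The median score was 6.605 for the unannotated 5′ sites and 7.972 for the main annotated 5′ sites at the same 3′ sites. The unannotated site scored higher than its annotated neighbour in 2093 of 6079 pairs (34.43%).

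The unannotated 5′ sites fell downstream of the main annotated 5′ site in 3978 cases and upstream of it in 2101, and 165 had no annotated junction at the 3′ site. Within 200 bases of the annotated site lay 2259 (37.16%), and of these the distance was a multiple of 3 in 700 (30.99%). A shift of 4 bases was the commonest distance, with 108 sites 4 bases downstream and 113 sites 4 bases upstream, against 46 for the next commonest, 5 bases upstream. The annotated consensus holds a second GT that starts 4 bases after the first. Only 12 sites lay 3 bases away in either direction. By the annotation of their strand, 1854 lay inside an annotated exon, 873 extended the downstream end of an annotated exon by up to 200 bases, 1801 (28.84%) lay up to 500 bases downstream of an unannotated 3′ site and thus bounded a candidate exon, 1100 lay elsewhere in an intron, 342 lay outside the genes of the strand and 274 joined or overlapped several genes. A candidate exon is inferred from a pair of junctions, 1 into it and 1 out of it, which need not be on the same RNA. The candidate exons had a median length of 104 bases (interquartile range 71 to 148), and 655 of them (36.37%) were a multiple of 3. GC 5′ sites made up 187 of the 1854 sites inside annotated exons and 54 of the 1801 at candidate exons.

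**Figure D1:**
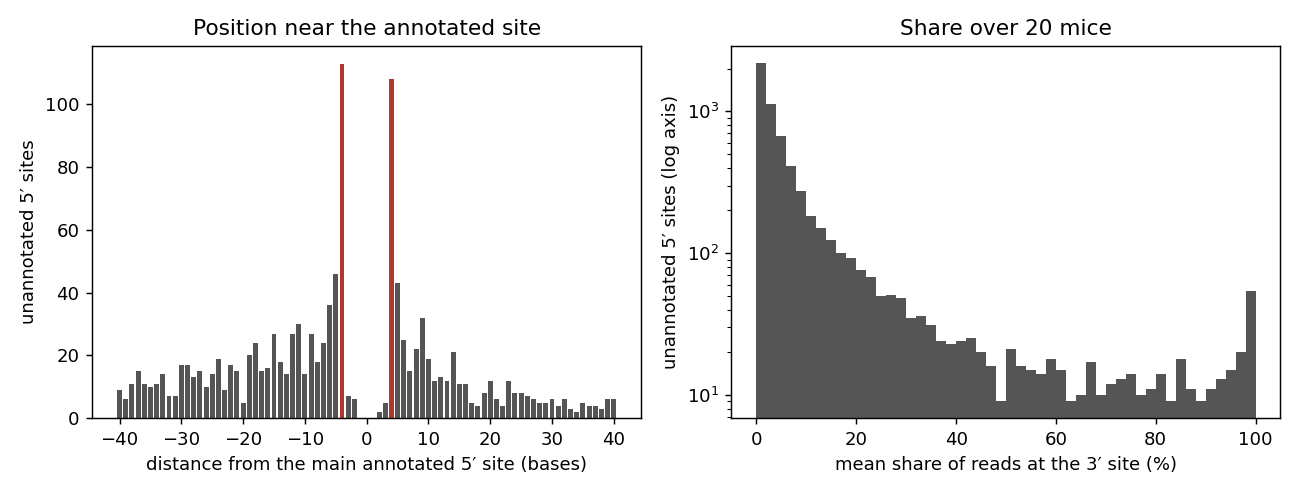
The left panel counts unannotated 5′ sites by their distance in bases from the main annotated 5′ site, with 4 bases upstream (113 sites) and downstream (108 sites) in red. The right panel counts the same 6244 junctions, on a log axis, by their mean share of reads at the 3′ site over 20 mice, with a median of 3.523% and a small rise at the right end.

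Usage was measured as the share, the reads of a junction as a percentage of all junction reads that end at its 3′ site in the same mouse. The mean share over the 20 mice had a median of 3.523% (interquartile range 1.256 to 10.05%). In 379 junctions (6.07%) it was above 50%, and in 1298 it was under 1%. Reads were found in all 20 mice for 2243 junctions and in 10 mice or fewer for 284. At 28 junctions no other junction used the 3′ site, so the share was 100% in every mouse and could not differ between groups. Among them were Atp2a2, the calcium pump of the endoplasmic reticulum, with 7512 reads, the checkpoint kinase gene Atr with 1379 reads and Specc1 with 1205 reads, all inside coding exons.

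The 3 junctions with most reads had their own behaviour. The Chi3l3 junction, 24 bases upstream of the annotated 5′ site in a coding exon of this secreted chitinase-like protein, held 89676 reads, and its score of 0.75 was the lowest of the sequences named here. Its share was 0, 0, 10.7, 0 and 9.785% in Veh_WT mice and 9.402, 10.6, 0, 10.03 and 0% in Sud_WT mice. In Veh_MUT mice it was 12.9, 12, 0, 13.03 and 11.2%, and in Sud_MUT mice 10.6, 0, 12.4, 13.7 and 12.96%. The 7 mice at 0 came from all 4 groups and had at least 31813 junction reads at the same 3′ site, and no comparison of Chi3l3 passed the threshold. Chi3l3 has near-identical relatives, between which an aligner can split reads. The Cd177 junction, 9 bases downstream of the annotated 5′ site in this neutrophil surface protein, held 61452 reads and stood between 27.1 and 31.7% in all 20 mice. The share of the Lilrb4 junction, in an inhibitory receptor of myeloid cells, ranged from 17.4 to 31.5% with 34183 reads, and neither Cd177 nor Lilrb4 passed the threshold at these sites.

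**Figure D2:**
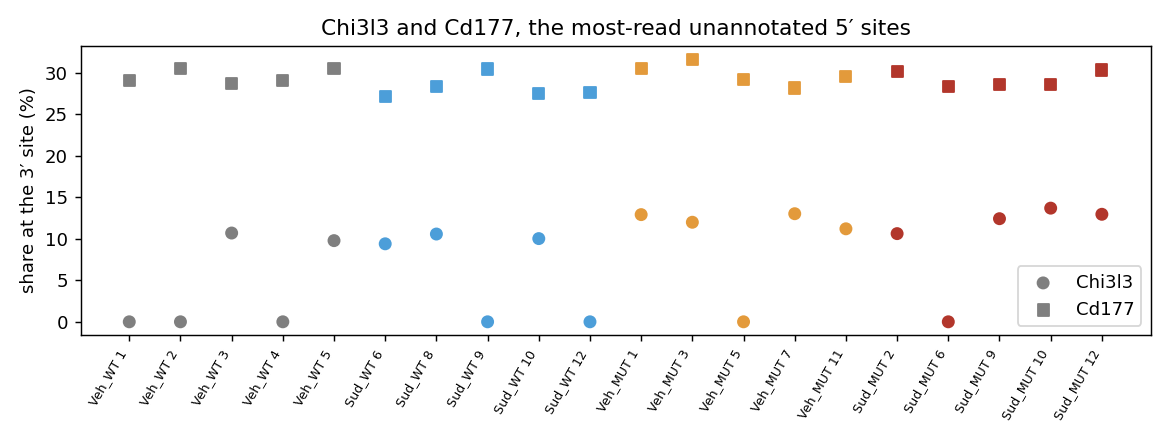
The share of reads at the 3′ site, in percent, is plotted for each of 20 mice in the colours of the 4 groups, with circles for Chi3l3 and squares for Cd177. Chi3l3 was at 0 in 7 mice and between 9.4 and 13.7% in the others, while Cd177 stayed between 27.1 and 31.7%.

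Zeros of the Chi3l3 kind were common. In 2112 of the 6244 junctions (33.82%), at least 1 mouse had no reads where 10 or more were expected from its reads at the 3′ site and the share in the mice with reads, in 518 junctions this held for 20 or more expected reads, and in 177 for 50 or more. Every mouse had such zeros, between 246 and 543 each at 10 expected reads. Among mouse values with 8 to 12 expected reads and junctions of 100 to 399 reads, 12.19% were 0 for the unannotated 5′ sites and 3.269% for annotated junctions. The cause of the zeros was not tested. Each count of called junctions below is therefore also given without the 2112 junctions, a choice made after the zeros were seen.

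The pooled share, the reads of all the junctions as a percentage of the junction reads at their 3′ sites, stood at 1.889 to 2.133% in Veh_WT mice and 1.672 to 2.113% in Sud_WT mice. In Veh_MUT mice it was 1.576 to 1.859%, and in Sud_MUT mice 1.550 to 1.750%. All Veh_MUT and Sud_MUT mice lay below all Veh_WT mice, while Sud_WT overlapped each of the other groups. The median share over the 6244 junctions went the other way, from 2.54 to 3.05% in Veh_WT mice, 2.32 to 3.06% in Sud_WT mice, 2.91 to 3.15% in Veh_MUT mice and 2.92 to 3.33% in Sud_MUT mice. The pooled share is weighted by the most-read genes, among them neutrophil genes whose summed level is given above, and all 24 genes of a neutrophil list had such junctions, 161 in number with a median share of 0.1887%. Whether the level of these genes bears on the pooled share was not tested. No test was made of these sums, because the junctions were chosen with earlier results of these data known.

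Each comparison used edgeR's quasi-likelihood test on the reads of a junction against the other reads at its 3′ site, fitted over the tested junctions of all classes, with a difference called at FDR<10% and a difference of group mean shares above 1 percentage point. On simulated data the proportion of false calls was above this nominal rate, so the calls are less strictly controlled than the FDR states. A junction entered a comparison with a mean of 10 or more reads per mouse at its 3′ site and a pooled share between 1 and 99%. In at least 1 of the comparisons 5188 of the 6244 junctions were tested, and 1056 in none. In at least 1 comparison 434 of all 6244, the untested included, were called (6.951%), in 377 genes. The matching share for junctions of every class was not computed, so this figure cannot be set against junctions in general. With 5 mice a group, the smallest p that an exact permutation test of 1 junction can give is 0.00794, which is reached wherever 2 groups do not overlap.

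The question of the first comparison was how U2AF1(S34F) differs from U2AF1(WT) without drug. Under vehicle, 126 of 4841 tested unannotated 5′ sites (2.603%) differed, 67 higher in the mutant and 59 lower. Over tested junctions of every class the called share was 2.26%, with 1.16% higher and 1.1% lower. The groups did not overlap in 104 of the 126 and in 247 of all 4841 tested. Calls and overlap rest on the same shares, so a lack of overlap among called sites is no separate support. Overlap was not counted for junctions of every class. The 126 lay in 115 genes and at 119 3′ sites. Without the junctions that had unexpected zeros, 74 were called, 39 higher and 35 lower. Leaving out 1 mouse gave 66 to 108 calls, with 66 without Veh_MUT 7, 72 without Veh_WT 3, 76 without Veh_MUT 11 and 82 without Veh_WT 5. The median absolute difference in share of the 126 was 0.0758 on a scale of 0 to 1, and the median signed difference over all 4841 was 0.0003056.

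Under sudemycin, 116 of 4804 tested sites (2.415%) differed between the genotypes, 66 higher in the mutant and 50 lower, against 2.2% of junctions of every class (1.1% higher, 1.11% lower). The groups did not overlap in 92 of them and in 211 of all 4804 tested, a count not made for junctions of every class. Without the junctions that had unexpected zeros, 77 were called (38 higher, 39 lower). Leaving out 1 mouse gave 56 to 124, with 56 without Sud_MUT 9, 68 without Sud_MUT 12, 69 without Sud_MUT 2, 71 without Sud_MUT 6, 76 without Sud_MUT 10 and 77 without Sud_WT 8. These mice are not those of the vehicle comparison. Both genotype comparisons called 33 sites, all in the same direction (18 higher, 15 lower), which is 26.19% of the calls under vehicle and 28.45% of those under sudemycin. Calls shared by both were not counted for junctions of every class.

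Among the called sites with groups apart and at least 50 reads per mouse at the 3′ site, a large difference between genotypes lay at the 4932438A13Rik 3′ site, in a gene for a large bridge-like lipid transfer protein. There 3 unannotated 5′ sites and the annotated one were joined to the same 3′ site, so their shares are not independent. Whether these 5′ sites belong to RNAs with different starts was not tested. The 5′ site at 36762201, 69 bases upstream of the annotated site inside an untranslated exon, had a share of 77.5, 77.4, 75.7, 85.6 and 82.3% in Veh_WT mice and 76.99, 73.9, 68.2, 73.7 and 79.75% in Sud_WT mice. In Veh_MUT mice it had 54.4, 53.02, 31.7, 39.97 and 45.3%, and in Sud_MUT mice 36.7, 34.7, 38.9, 50.4 and 34.9%. Every U2AF1(S34F) mouse lay below every U2AF1(WT) mouse. The mean fell from 79.7% ± 4.11 (SD, n = 5) to 44.9% ± 9.42 under vehicle (FDR = 8.76e-05) and from 74.5% ± 4.298 to 39.1% ± 6.54 under sudemycin (FDR = 1.21e-05). Over the same mice the annotated 5′ site took a mean of 1.75% of the reads in Veh_WT, 1.097% in Sud_WT, 20.97% in Veh_MUT and 23.95% in Sud_MUT mice. In U2AF1(WT) marrow the commonest 5′ site was thus the unannotated one. The 5′ site at 36762229, 41 bases upstream of the annotated site, was at 0 in all 5 Veh_WT mice and in 4 of 5 Sud_WT mice. It was at 5.04, 2.62, 4.16, 0.968 and 0.584% in Veh_MUT mice and at 3.64, 2.28, 2.36, 4.04 and 1.11% in Sud_MUT mice. It rose in both comparisons (FDR = 0.0814 and 0.0351), a call lost under vehicle in 5 of the 7 fits without 1 mouse in which it was tested. Of its 142 reads, 4 came from Sud_WT 6 and the rest from U2AF1(S34F) mice. It thus passed the limit on summed reads through the mice in which it rose, and its selection and its calls rest on the same reads. The 5′ site at 36761063, 1207 bases upstream and outside the genes of the strand, had mean shares of 18.55% ± 4.196 in Veh_WT, 24.2% ± 4.66 in Sud_WT, 29.2% ± 11.5 in Veh_MUT and 33.9% ± 6.301 in Sud_MUT mice, with no call between genotypes (FDR = 0.157 and 0.147). The level of the whole gene did not pass the test between genotypes (log2 difference 0.24 under vehicle, SE 0.1085, FDR = 0.109).

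In Aoah, which encodes an enzyme that inactivates bacterial lipopolysaccharide, the unannotated 5′ site closed a candidate exon of 268 bases, 1892 bases into the intron. Its share was 20, 6.301, 10.8, 8.403 and 8.38% in Veh_WT mice and 19.7, 31.4, 24.4, 42.9 and 29.5% in Veh_MUT mice. Under sudemycin it was 12.4, 6.98, 11.2, 9.85 and 17.45% in U2AF1(WT) and 49.1, 53.96, 38.9, 36.5 and 50.8% in U2AF1(S34F) mice. The groups overlapped slightly under vehicle (10.8% ± 5.396 and 29.6% ± 8.74, FDR = 0.0132) and not under sudemycin (11.6% ± 3.86 and 45.85% ± 7.69, FDR = 7.11e-05). The Aoah gene itself was lower in the mutant, by a log2 difference of -0.76 (SE 0.1066) under vehicle.

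The Mdm4 site, a GC 5′ site at the end of a candidate exon of 82 bases in this gene for an inhibitor of the p53 protein, rose in the mutant. Its share was 9.72, 8.59, 12.98, 10.7 and 10.3% in Veh_WT mice and 27.7, 22.4, 19.3, 19.3 and 23.5% in Veh_MUT mice, and 12.4, 11.9, 5.57, 9.898 and 14.5% in Sud_WT and 22.25, 19.1, 24.8, 28.3 and 18.2% in Sud_MUT mice. No mouse of one genotype overlapped the other, and the FDR was 0.00301 under vehicle and 0.0147 under sudemycin. The level of Mdm4 did not pass the test in either comparison (log2 difference -0.03, SE 0.09064, and -0.09, SE 0.09376).

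Klra17, a lectin-like receptor of the Ly49 family, lost most of its use of a 5′ site 53 bases downstream of an annotated one. The share was 22.4, 33.2, 33.7, 37.95 and 35.2% in Veh_WT mice and 8.33, 4.29, 5.05, 3.37 and 6.75% in Veh_MUT mice. It was 21.5, 20.8, 18.8, 24.9 and 37.9% in Sud_WT mice and 8.06, 4.101, 7.68, 6.56 and 5.59% in Sud_MUT mice. The mutant lay below the wild type in every mouse (FDR = 5.67e-05 and 0.000935). In Naip5, an intracellular sensor of bacterial flagellin, a 5′ site outside the annotated genes of the strand rose in share from 51.2% ± 8.01 to 81.25% ± 11.1 under vehicle (FDR = 0.0465) and from 51.3% ± 11.7 to 81.2% ± 8.61 under sudemycin (FDR = 0.01999). Naip5 as a gene fell by 1.63 on the log2 scale under vehicle (SE 0.123), and the reads of the junction itself fell too, so that the share rose while the level dropped. Both Klra17 and Naip5 belong to families of closely similar genes, between which reads can be split.

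Further sites named by size rose in the mutant. Gm11427 rose under vehicle, from 43.2% ± 9.61 to 73.7% ± 11.35 (FDR = 0.04275). A Stx16 site inside a coding exon of this Golgi fusion protein rose under sudemycin from 12.4% ± 4.21 to 43.97% ± 5.95 (FDR = 0.001965), with means of 16.9% ± 7.004 and 26.99% ± 14.6 under vehicle and no call there. The difference between the drug conditions was not called for Stx16 (interaction FDR = 0.947). Gm4759, joined through an intron of 89312 bases, rose from 41.9% ± 35 to 88.7% ± 7.82 under vehicle and from 43.7% ± 19.4 to 90.8% ± 10.75 under sudemycin (FDR = 0.0145 and 0.0242), on only 14 to 71 reads per mouse at the 3′ site, with Veh_WT mice from 9.091 to 100% and so overlapping the mutant under vehicle.

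**Figure D3:**
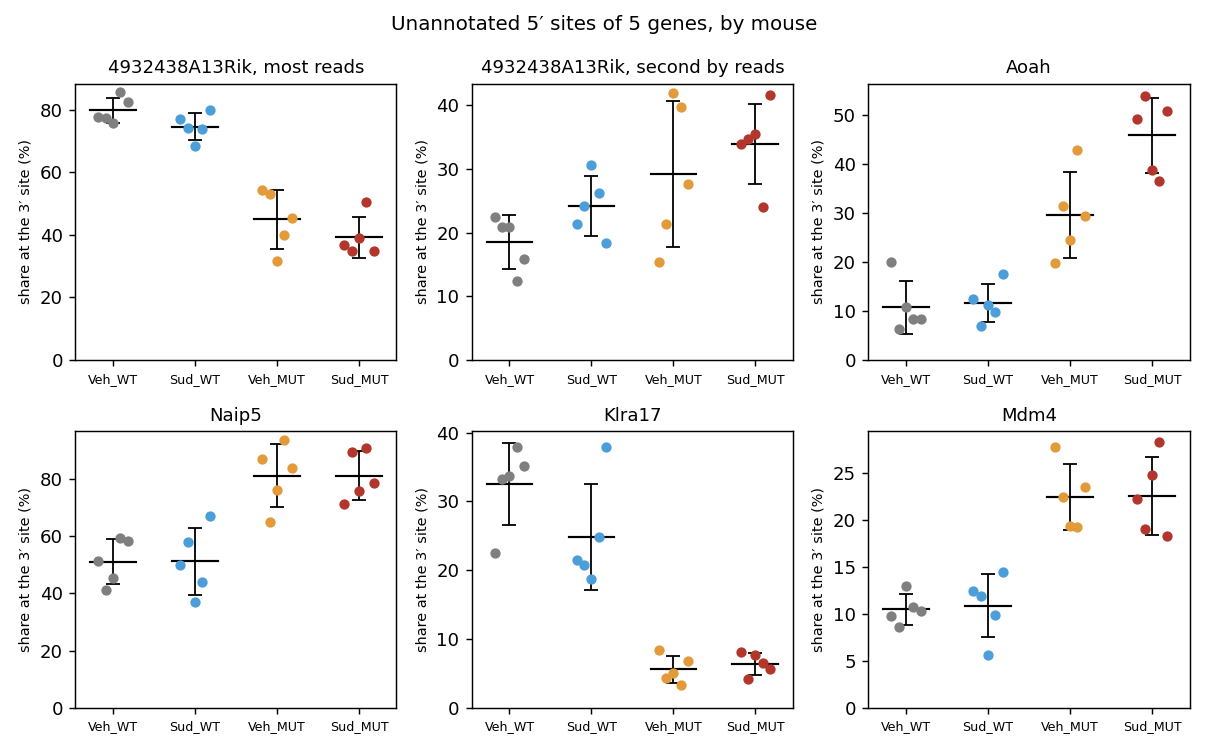
Each panel gives the share of reads at the 3′ site, in percent, for 1 unannotated 5′ site, with a point per mouse and the mean and SD of each group of 5. The most-read 4932438A13Rik site and Klra17 lay lower in both U2AF1(S34F) groups, Mdm4 and Naip5 lay higher in both, and the second 4932438A13Rik site overlapped between the genotypes.

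The genotype calls were split by the base at the third position before the exon at the unannotated 3′ site that opens a candidate exon. In the vehicle comparison this base was T in 2 of the 33 candidate exons whose 5′ site rose in the mutant (6.061%) and in 11 of the 21 whose 5′ site fell (52.38%). It was T in 25.41% of 1350 tested and not called. In the mice given sudemycin it was T in 3 of 25 that rose (12%) and in 10 of 19 that fell (52.63%), against 24.8% of 1359 not called. The 33 and 21 candidate exons used 32 and 20 different unannotated 3′ sites, so nearly all were counted once. At the annotated 3′ sites that all these junctions join, T stood at that position in 28.36% of those that rose and 23.73% of those that fell under vehicle, and in 34.85% and 24% under sudemycin, with 31.3% and 30.84% of those not called. The contrast was kept with the candidate exon limited to 150 bases, where T stood in 1 of 24 that rose and 8 of 13 that fell under vehicle and in 1 of 17 and 7 of 11 under sudemycin. Stricter tests left few calls. By limma T stood in 0 of 8 that rose and 4 of 9 that fell under vehicle, and in 0 of 7 and 1 of 5 under sudemycin. With an estimated dispersion it stood in 0 of 5 and 2 of 7 under vehicle, and under sudemycin in 0 of 9 that rose and 0 of 6 that fell, where no contrast was seen. These counts are descriptive, and no test was made of them.

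The 3′ site windows of 5 named candidate exons called between the genotypes show the base, as 20 intron bases and 3 exon bases with the third base before the exon in capitals, and the position of the first exon base. Aoah and Mdm4 rose in the mutant, and Zrsr2, Luc7l2 and Morc3 were lower in it under sudemycin:
Aoah, 21088988: ctgctttccttttcccaAagagc
Mdm4, 134893412: actgttaaattgcttgtCagcta
Zrsr2, chromosome X, minus strand, 160383281: tattcaattccttccacTagcac
Luc7l2, chromosome 6, plus strand, 38519935: cctctaactcctcccagCagcaa
Morc3, 93845198: ctgaaatgcattcctttCagaga

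Of the 3 named candidate exons that were lower in the mutant, Zrsr2 alone had T, while Luc7l2 and Morc3 had C, as did Gm11427, Mdm4, Hnrnpc and Rbm25 among those that rose. The Morc3 call between genotypes (FDR = 0.0876) was lost in 8 of 10 fits without 1 mouse. Zrsr2 encodes the 3′ splice site factor of the minor spliceosome, a relative of U2AF1. Its share was 53.2, 46.5, 52.4, 28.8 and 27.3% in Sud_WT mice and 18.3, 18.9, 16.1, 18.2 and 25.5% in Sud_MUT mice, with no overlap (FDR = 0.0966). Under vehicle it was 68.8, 22.95, 39.5, 9.615 and 48.5% in U2AF1(WT) and 26.03, 22.4, 25.45, 26.3 and 30.4% in U2AF1(S34F) mice, and the spread within Veh_WT was wide (FDR = 0.474). The Zrsr2 call was lost in 9 of 10 fits without 1 mouse. Zrsr2 lies on the X chromosome, and the genotypes here differ in sex-linked genes as given above.

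**Figure D4:**
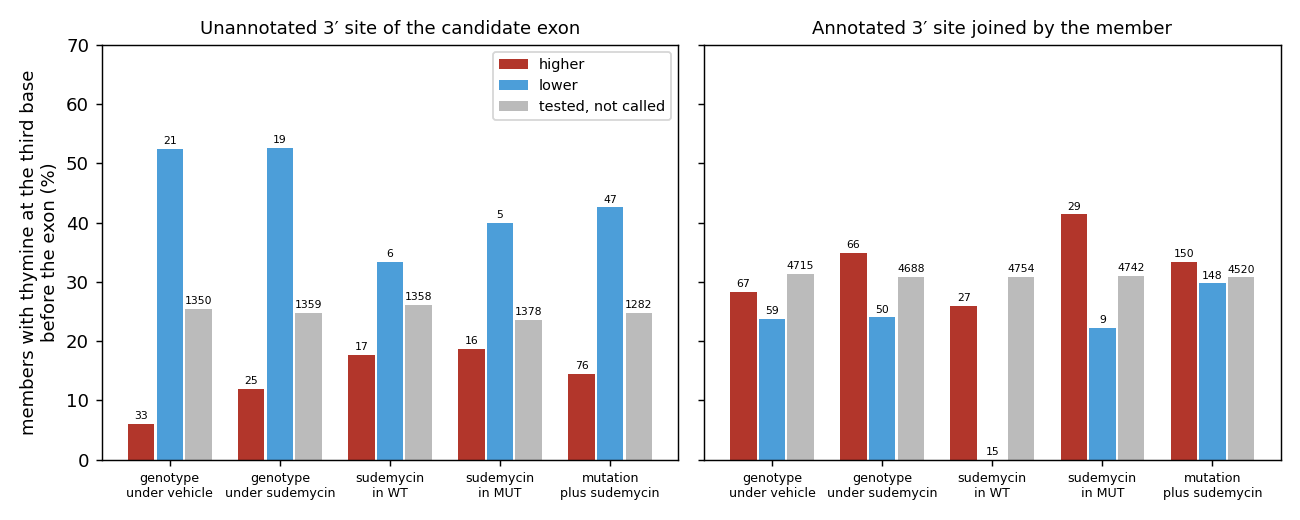
Bars give the percentage of junctions with T at the third base before the exon, at the unannotated 3′ site of the candidate exon (left) and at the annotated 3′ site joined (right), for junctions called higher, called lower or tested and not called in each comparison, with the number of junctions above each bar. In both genotype comparisons the left panel stood at 6.061 and 12% for the higher and 52.38 and 52.63% for the lower calls.

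Sudemycin in U2AF1(WT) mice changed 42 of 4796 tested sites (0.8757%), 27 higher with drug and 15 lower, against 0.667% of junctions of every class (0.347% higher, 0.321% lower). The groups did not overlap in 34 of them and in 129 of all 4796 tested. Without the junctions that had unexpected zeros there were 23, 13 higher and 10 lower. Leaving out 1 mouse gave 20 to 45 calls, with 20 without Sud_WT 12, 22 without Veh_WT 5, 24 without Sud_WT 10 and 25 without Veh_WT 3. By DESeq2 120 were called, 61 higher, and with the share taken of annotated junctions alone 75, 42 higher. In U2AF1(S34F) mice, sudemycin changed 38 of 4780 (0.795%), 29 higher and 9 lower, against 0.818% of every class (0.425% higher, 0.393% lower). The groups did not overlap in 33 of the 38 and in 135 of all 4780 tested. In neither genotype was overlap counted for junctions of every class. Without the junctions that had unexpected zeros there were 21, 16 higher and 5 lower. Leaving out 1 mouse gave 21 to 34, with 21 without Sud_MUT 2, 22 without Sud_MUT 6 and 24 without Sud_MUT 9. The part of higher calls depended on the setting, with 24 of 29 higher in one model of all mice, 6 of 6 with an estimated dispersion, 5 of 6 by limma, 29 of 42 at 50 reads per mouse, 45 of 77 by the share of annotated junctions alone, 42 of 76 by DESeq2 and 26 of 66 by the level of the junction. Both drug comparisons called 13 sites, 12 higher and 1 lower, which is 30.95% of the calls in U2AF1(WT) and 34.21% of those in U2AF1(S34F) mice. For junctions of every class the calls shared by both were not counted.

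The site that was lower in both was in Gcnt1, which encodes a branching enzyme of O-linked glycans. This 5′ site lay inside an intron, 21230 bases downstream of the annotated 5′ site. Its share was 38.4, 40.5, 44.15, 57.1 and 35.4% in Veh_WT mice and 27.7, 11.5, 10.1, 16.5 and 11.9% in Sud_WT mice. In Veh_MUT mice it was 51.5, 36.3, 56.6, 34.6 and 43.9%, and in Sud_MUT mice 17.1, 18.97, 17.55, 15.6 and 17.1%. In each genotype all treated mice lay below all vehicle mice, and the mean fell from 43.1% ± 8.42 to 15.5% ± 7.204 in U2AF1(WT) (FDR = 0.014) and from 44.6% ± 9.497 to 17.3% ± 1.195 in U2AF1(S34F) mice (FDR = 0.00774). Gcnt1 as a gene also fell, by 0.63 (SE 0.1333) and 0.60 (SE 0.06813) on the log2 scale.

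Among the sites that rose in both was Prrc2c, a gene for an RNA-binding protein of stress granules, at the end of a candidate exon of 50 bases. The share was 50.8, 42.5, 42.3, 37.2 and 33.5% in Veh_WT mice and 61.02, 68.2, 64.8, 48.7 and 59.3% in Sud_WT mice, and 40.4, 35.4, 39.96, 36.5 and 32.7% in Veh_MUT and 54.4, 56.4, 54.4, 49.4 and 53.9% in Sud_MUT mice. The Sud_MUT mice all lay above the Veh_MUT mice, and 1 Sud_WT mouse lay within the Veh_WT range (FDR = 0.0581 in U2AF1(WT), 0.00353 in U2AF1(S34F)). In U2AF1(WT), leaving out 1 mouse ended the Prrc2c call in 8 of 10 cases. Gm5918, with a candidate exon of 67 bases, rose from 8.38% ± 17.2 to 57.3% ± 9.49 in U2AF1(WT) and from 9.37% ± 4.73 to 55.9% ± 12.5 in U2AF1(S34F) mice (FDR = 0.0578 and 0.01197), on 13 to 70 reads per mouse at the 3′ site. A single Veh_WT mouse at 39.02% gave the spread of that group, and the Gm5918 call in U2AF1(WT) was lost in 6 of 10 fits without 1 mouse.

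Morc3, a nuclear ATPase, used the 5′ site of a candidate exon of 96 bases more with drug. Its share was 8, 7.48, 11.3, 2.97 and 7.59% in Veh_WT mice and 29.15, 24.4, 21.5, 28.97 and 25.8% in Sud_WT mice. It was 6.15, 8.17, 9.295, 8.402 and 4.34% in Veh_MUT mice and 16.7, 25.04, 13.1, 10.6 and 14.6% in Sud_MUT mice. The groups did not overlap in either genotype (FDR = 0.000386 and 0.0891), and the call in U2AF1(S34F) mice was lost in 8 of 10 fits without 1 mouse. The rise was 18.5 percentage points in U2AF1(WT) and 8.75 in U2AF1(S34F) mice, and that difference did not pass the test (edgeR interaction FDR = 0.947). In Gmeb2, a transcription factor that binds the glucocorticoid modulatory element, a site within an untranslated exon was near 0 without drug. Its share was 2.56, 0, 0, 0 and 0% in Veh_WT mice and 0 in all 5 Veh_MUT mice, which had 108 to 144 reads at the 3′ site. With drug it was 28.9, 20.9, 11.1, 20.6 and 15.9% in U2AF1(WT) and 11.6, 18.1, 5.39, 7.58 and 12.4% in U2AF1(S34F) mice (FDR = 0.0119 and 0.0477). No vehicle mouse had more than 3 of the 239 reads of this site. The Gmeb2 site thus passed the limit on summed reads through the treated mice in which it rose, and its selection and its calls rest on the same reads. The annotated junctions of that Gmeb2 site took 86.95% and 89.7% of the reads without drug, and 43.9% and 49.6% with it.

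**Figure D5:**
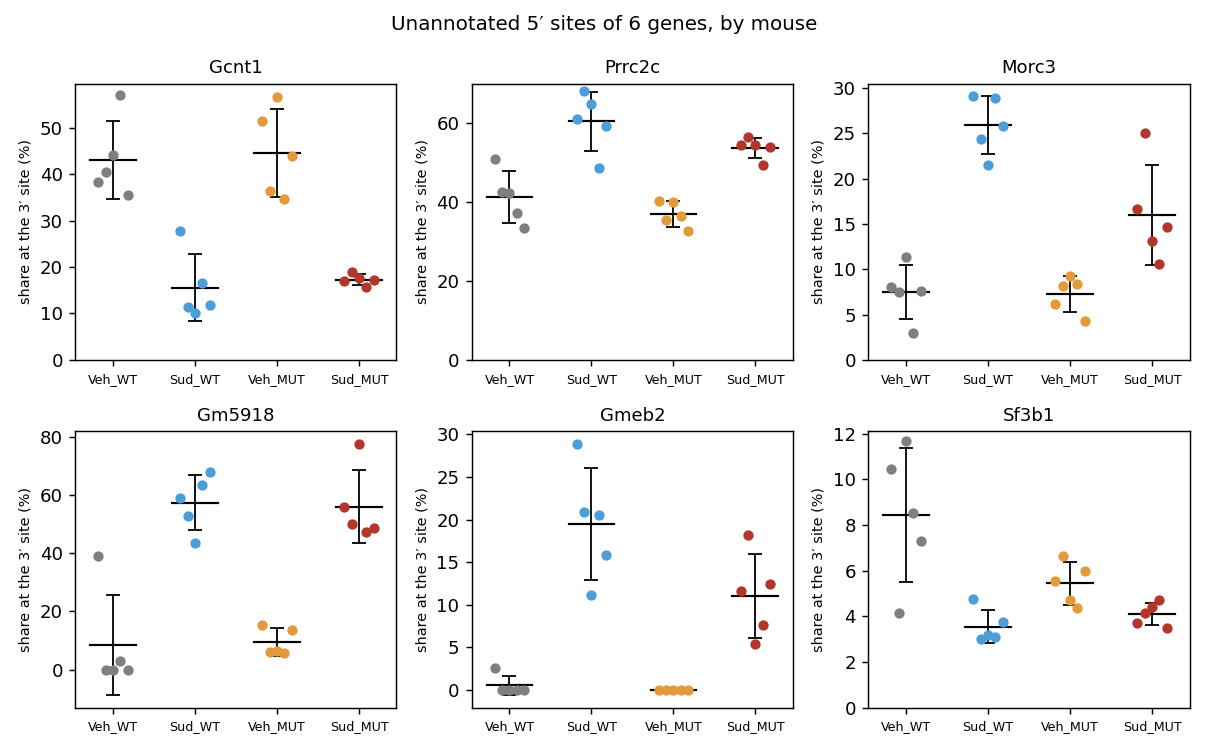
Each panel gives the share of reads at the 3′ site, in percent, for 1 unannotated 5′ site, with a point per mouse and the mean and SD of each group of 5. Gcnt1 was lower and Prrc2c, Morc3, Gm5918 and Gmeb2 were higher with sudemycin in both genotypes, while Sf3b1 was lower with sudemycin in U2AF1(WT) mice and not called in U2AF1(S34F) mice, a difference that was itself not called (edgeR interaction FDR = 0.947).

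With a dispersion estimated from the counts, none of the drug calls named here was kept in either genotype, while limma on the logit of the share kept Gcnt1 and Gm5918 in U2AF1(S34F) mice and Gmeb2 in both genotypes. In the genotype comparisons the calls of 4932438A13Rik at 36762201, Klra17 and, under vehicle, Mdm4 were kept by both of these tests, as were those of Aoah and Stx16 under sudemycin, whereas those of Naip5, Gm4759 and, under vehicle, Aoah and Gm11427 were kept by neither.

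A pair of further drug calls rest on sites that could be read from more than 1 gene. The junction named for Igkv6-14 and Igkv6-15, immunoglobulin light chain V genes, was lower with drug in U2AF1(WT) mice (29.6% ± 17.6 and 2.1% ± 2.57, FDR = 0.0005325), and its share varied from 3.44 to 67.5% among Veh_MUT mice alone. The junction between Cluap1 and RP23-312H15.9 was higher with drug in U2AF1(S34F) mice (1.945% ± 2.15 and 12.2% ± 3.825, FDR = 0.0569), a call lost in 7 of 10 fits without 1 mouse. Junctions of several genes made up 4 of the 42 calls in U2AF1(WT) and 2 of the 38 in U2AF1(S34F) mice, and without them and those of immunoglobulin genes 38 and 36 were called.

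For the candidate exons called by drug, T at the third base before the exon stood in 3 of 17 that rose and 2 of 6 that fell in U2AF1(WT) mice, and in 3 of 16 and 2 of 5 in U2AF1(S34F) mice, against 26.14% and 23.58% of those not called. The lower calls by drug were too few for a comparison of percentages.

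The interaction of genotype and drug asked whether the drug difference depended on the genotype. None of 4861 tested unannotated 5′ sites was called by edgeR (lowest FDR 0.394), and by limma and with an estimated dispersion the count was also 0. An unadjusted p under 0.05 in the edgeR test was reached by 277 of them, and by 2393 of 47226 tested junctions of every class. Over all classes 3 of 47226 junctions were called (0.00635%).

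Mutation and drug together, Veh_WT against Sud_MUT mice, gave the largest number of calls. Of 4818 tested sites 298 (6.185%) differed, 150 higher and 148 lower, against 5.18% of junctions of every class (2.61% higher, 2.58% lower). The groups did not overlap in 198 of them and in 292 of all 4818 tested, again a count not made for junctions of every class. Without the junctions that had unexpected zeros, 176 were called, 82 higher and 94 lower. Leaving out 1 mouse gave 196 to 297, the fewest without Sud_MUT 6 or 9 (196), 12 (197) or 2 (198). This comparison shares its mice with the 4 others. At candidate exons 76 of 1405 tested sites rose and 47 fell, and T stood at the third base before the exon in 11 of the 76 (14.47%), 20 of the 47 (42.55%) and 24.73% of those not called. Where annotated exons were extended downstream, 8 rose and 18 fell of 647 tested. The 4932438A13Rik site at 36762201 fell by 40.6 percentage points (FDR = 1.62e-06), and that at 36761063 rose from 18.55% ± 4.196 to 33.9% ± 6.301 (FDR = 0.00566), with neither genotype nor drug alone called for it. Set against annotated junctions alone, the share at 36761063 fell instead, with a difference of -0.3278 on a scale of 0 to 1. Aoah rose by 35.1 points (FDR = 0.000118), Naip5 by 30.1 (FDR = 0.00746) and Stx16 by 27.1 (FDR = 0.004065).

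Calls were also counted in lists of genes for marrow and splicing. The lists and the junctions were chosen with earlier results of these data known, and their counts are descriptions. Over tested junctions of every class, 2.26% were called between genotypes under vehicle and 2.2% under sudemycin. With drug 0.667% were called in U2AF1(WT) and 0.818% in U2AF1(S34F) mice, and 5.18% with mutation and drug together. The counts of all lists below are to be read beside these shares. Of 50 splicing factors and RNA-binding proteins 32 had 68 of the junctions. Between genotypes 1 rose and 2 fell of 55 tested under vehicle, and 1 rose and 1 fell of 56 under sudemycin. With mutation and drug together 4 rose and 5 fell of 55, where 5.18% of junctions of every class were called. In Hnrnpa2b1, which binds nascent and mature RNA, a pair of sites in an untranslated exon shared 1 3′ site. Their shares fell in the mutant under vehicle, that at 51411919 from 18.4% ± 4.12 to 7.975% ± 1.92 (FDR = 0.00728) and that at 51411982, a GC site, from 16.75% ± 4.09 to 6.11% ± 0.933 (FDR = 0.00301). The level of Hnrnpa2b1 was higher in the mutant under vehicle (log2 difference 0.29, SE 0.08616, FDR = 0.0211). Hnrnpc, which binds uridine-rich RNA, fell with drug in U2AF1(WT) mice from 50.9% ± 3.36 to 37.1% ± 7.47 (FDR = 0.0975), a call that was lost in 9 of 10 fits without 1 mouse. Sf3b1, the target of the drug, had a site at the end of a candidate exon of 56 bases whose share was 10.5, 4.13, 11.7, 8.55 and 7.3% in Veh_WT mice and 4.74, 3.01, 3.18, 3.07 and 3.75% in Sud_WT mice. The groups overlapped at 1 Veh_WT mouse (FDR = 0.0819), and the call was lost in 8 of 10 fits without 1 mouse. In U2AF1(S34F) mice the means were 5.45% ± 0.939 and 4.1% ± 0.497 (FDR = 0.492), and the interaction was not called (edgeR FDR = 0.947). From Veh_WT to Sud_MUT mice the site fell by 4.321 points (FDR = 0.0339), a call kept in 10 of 10 fits without 1 mouse.

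A list made for 5′ splice site recognition held 41 genes. It also included U2af1, U2af2, Sf3b1 and Zrsr2, which act at the 3′ site or the branch point. Of the 41 genes 14 had 30 of the junctions, of which 25 were tested in each genotype comparison. None was called under vehicle, and under sudemycin 1 rose and 2 fell. Rbm25, a regulator associated with U1, rose from 7.603% ± 4.61 to 18.9% ± 6.91 (FDR = 0.0722), a call lost in 7 of 10 fits without 1 mouse. Luc7l2, a U1-associated protein, fell from 13.3% ± 7.26 to 1.55% ± 0.457 (FDR = 0.0132), with individual Veh_WT mice between 0 and 20.2%. The third was Zrsr2, the 3′ splice site factor given above.

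Among 34 myeloid neoplasm drivers 11 had 44 junctions, with no call between genotypes and 1 lower with drug in U2AF1(WT) mice. That was Csf3r, the receptor for granulocyte colony-stimulating factor, whose share of a site 88 bases downstream of the annotated one was 3.86, 3.83, 3.045, 4.565 and 3.58% in Veh_WT mice and 1.92, 2.098, 1.89, 1.53 and 1.585% in Sud_WT mice (FDR = 0.0732), a call lost in 9 of 10 fits without 1 mouse. In U2AF1(S34F) mice it was 2.83, 1.996, 2.36, 1.86 and 2.38% with vehicle and 1.21, 1.41, 0.949, 1.29 and 1.01% with drug, also without overlap but with no call (FDR = 0.166). With mutation and drug together 1 of 32 drivers' sites rose and 4 fell, among them Jak2, the cytokine receptor kinase, which rose from 0.286% ± 0.639 to 5.27% ± 2.28 (FDR = 0.0122), and the transcriptional repressor gene Etv6, which fell from 7.985% ± 2.41 to 1.91% ± 1.49 (FDR = 0.05405, lost in 5 of 10 fits without 1 mouse).

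Of the 161 junctions in neutrophil genes only 33 to 38 were tested, since most shares were under 1%. Under vehicle 2 rose in the mutant, and with drug 1 fell in U2AF1(WT) and 1 rose and 1 fell in U2AF1(S34F) mice. With mutation and drug together 1 rose and 4 fell of 35. A second Cd177 site rose with drug in U2AF1(S34F) mice from 2.71% ± 0.241 to 5.17% ± 1.196 (FDR = 0.0353), and in U2AF1(WT) mice it had 2.07% ± 0.569 and 3.95% ± 0.825 (FDR = 0.152). The junction between Chi3l3 and Chi3l7 had 0.159% ± 0.355 in Veh_WT and 7.002% ± 5.895 in Veh_MUT mice (FDR = 0.06715), a call lost in 7 of 10 fits without 1 mouse. Among 19 cell death genes 9 had 15 junctions, and besides Mdm4 the initiator caspase gene Casp8 rose under vehicle from 2.66% ± 2.28 to 7.31% ± 0.937 (FDR = 0.0727), through a 5′ site 192156 bases upstream of the annotated one and with the call lost in 7 of 10 fits without 1 mouse. In translation initiation, 8 of 16 genes had 14 junctions and only mutation and drug together gave calls, Eif4a2 higher (29.1% ± 4.35 to 40.5% ± 4.73, FDR = 0.0318) and Eif4g3 lower (4.48% ± 2.1 to 1.304% ± 0.534, FDR = 0.0909, lost in 8 of 10 fits without 1 mouse). The same comparison called the decay kinase gene Smg1 (of 10 junctions in 6 of 21 decay genes, 24.9% ± 7.06 to 38.5% ± 6.67, FDR = 0.0658, lost in 5 of 10 fits) and the B cell factor gene Ikzf3 (of 14 junctions in 5 of 23 B cell genes, 3.34% ± 3.63 to 22.3% ± 11.9, FDR = 0.0267). Erythroid and haem genes, with 12 junctions in 9 of 30 genes, and antigen presentation genes, with 11 in 8 of 19, gave no call in any comparison.

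Genes that the study singled out for other splicing events held further junctions. BC018473 had 6, with no call in any comparison. The largest group mean among them was 16.9% ± 6.84 in Sud_WT mice. The BC018473 junction from 116614139 to 116614884 had a share of 4.345 to 7.186% in Sud_WT mice against 1.185 to 3.753% in Veh_WT mice, without overlap, and did not pass the test (FDR = 0.185). The Eif4g1 site had mean shares between 1.138 and 2.294% in the 4 groups, and the group means of the Hnrnph1 sites lay between 0.3925 and 1.17%. No call was made at the other 4 junctions of 4932438A13Rik, outside the 3′ site described above.

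The levels of the 41 genes of the list made for 5′ splice site recognition were examined in the gene counts, of which 40 were tested. The counts of genes below thus include U2af1, U2af2, Sf3b1 and Zrsr2, which act at the 3′ site or the branch point. Whether reads of the transgene entered the count of U2af1 is not given in the sources used here. U2af1 stood at 34.85 to 38.4 CPM in Veh_WT, 38.46 to 48.33 in Sud_WT, 46.41 to 54.32 in Veh_MUT and 51.43 to 58.03 in Sud_MUT mice, higher in the mutant under vehicle (edgeR FDR = 0.000294) and under sudemycin (FDR = 0.00415). Between genotypes 18 genes were called under vehicle, 12 higher in the mutant and 6 lower, and 18 under sudemycin, also 12 and 6, where 39.5% and 36.8% of all genes tested were called. Of 7 genes of the Sm ring, which all spliceosomal U particles but U6 carry, 4 rose in both (Snrpd1, Snrpd2, Snrpe and Snrpg), Snrpf rose under sudemycin alone (FDR = 0.121 under vehicle), a difference not tested, and Snrpb and Snrpd3 were called in neither. The log2 differences were for Snrpd1 0.53 (SE 0.1102) under vehicle and 0.67 (SE 0.1086) under sudemycin and for Snrpe 0.56 (SE 0.09964) and 0.52 (SE 0.07733). Luc7l3, a U1-associated protein, rose in both as well (0.47, SE 0.07655, under vehicle and 0.33, SE 0.08604, under sudemycin). Luc7l2 fell (-0.35, SE 0.09634, and -0.28, SE 0.07931), and so did U2af2, the partner of U2AF1, by 0.35 and 0.38. Sudemycin raised 2 of the genes in U2AF1(WT) mice, Snrnp200 (0.42, SE 0.08174) and Ddx23 (0.34, SE 0.08514), which act when U1 leaves the 5′ site and U6 is unwound, against 3.07% of all genes, and 6 in U2AF1(S34F) mice, against 10.8%. With mutation and drug together 30 were called, 22 higher and 8 lower, against 50.2% of all genes.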

How the data were processed

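Bone marrow RNA of 20 mice was sequenced as stranded, ribosomal RNA-depleted libraries. Per the submitters' processing notes, reads were aligned with TopHat2 2.0.8 to mm9. The authors deposited raw read counts per splice junction and per gene, with the class of each junction against their annotation and the number of annotated exons it skips, a column used here only as a description of the table and in no test. All columns of mice were matched to a sample by title, and 0 were left unused.

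Junctions with an annotated 3′ and an unannotated 5′ site and 100 or more reads over the 20 mice were taken. The share of a junction was its reads over all junction reads at the same 3′ site. Each comparison used edgeR 4.0.16 (R 4.3.3) quasi-likelihood tests with 1 coefficient per mouse, so that a junction is tested against the other reads at its site, a dispersion of 0, and Benjamini-Hochberg adjustment over all tested junctions of every class. Where a site has a pair of junctions, both are tested and their shares are complementary. Gene counts were tested with the same package. Alternatives used limma 3.58.1, DESeq2 1.42.0, an estimated dispersion, TMM-scaled junction levels, other limits, a block for the mouse number, and fits with each mouse left out in turn. The counts without unexpected zeros or without several-gene and immunoglobulin junctions, the pooled share without Chi3l3 and the other settings for the base before the exon were chosen after seeing the data. The tests were run on simulated data with known changes, where the proportion of false calls of the share test was above the nominal rate.

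Named were, per comparison, the 4 called junctions with the largest difference among those with groups apart and 50 or more reads per mouse at the 3′ site, those called in both drug or both genotype comparisons, those with the largest share or most reads, those called in a gene list (up to 3 each), and those in genes that the study names. Members and lists were chosen with earlier results of these data known. Nothing says that mice came from separate donor pools, so p-values measure the spread between these mice. Intervals of counting error were not used, since PCR copies are not independent molecules.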

Additional observations from a re-analysis of the deposited data

Results flagged for a closer look

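In groups of 5 mice, a mouse was singled out where its gap to the nearest other exceeded 0.71 of the range of the group. Of 232 groups tested 22 met this. The limit marks about 1 in 20 groups of independent, normally distributed values. Shares near 0 and junctions of the same gene are not such values, so the count cannot be set against that rate. In 4932438A13Rik, the share of the 5′ site at 36762201 was 50.43% in Sud_MUT 10 (34.68 to 38.91% in the others), and that at 36762229 was 0.6623% in Sud_WT 6 (0 in the others). In BC018473 the junctions were at 4.535% in Sud_MUT 2, 3.96% in Sud_WT 6, 0.6701% in Sud_MUT 9, 0.9877% in Veh_MUT 5 and 24.13% in Sud_MUT 9.

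Chi3l3 was at 0 in Sud_MUT 6 and in Veh_MUT 5, and the Chi3l3 and Chi3l7 junction at 0.7937% in Veh_WT 1. Gm5918 was at 77.5% in Sud_MUT 9 and 39.02% in Veh_WT 1, and Gmeb2 at 2.564% in Veh_WT 1. The second Cd177 site was at 3.136% in Veh_MUT 11, Eif4g1 at 3.491% in Veh_MUT 1, Jak2 at 1.429% in Veh_WT 1, Rbm25 at 30.96% in Sud_MUT 9, Smg1 at 37.66% in Sud_WT 12, the Sf3b1 site at 55076055 at 0.2453% in Sud_WT 10 and an Hnrnph1 site at 0 in Sud_MUT 9 (0.3976 to 0.5596% in the others).

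Over all the junctions, Veh_WT 2 had 3335 CPM of junction reads (3876 to 4019 in the other Veh_WT mice) and a pooled share of 1.889% (2.079 to 2.133%). The causes were not tested.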

How the results depend on the processing

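The order of counts below is genotype under vehicle, genotype under sudemycin, sudemycin in U2AF1(WT), sudemycin in U2AF1(S34F) and mutation plus sudemycin, against 126, 116, 42, 38 and 298 called. An estimated dispersion gave 31, 29, 7, 6 and 115, and limma 46, 35, 11, 6 and 134. The share of annotated junctions alone gave 215, 197, 75, 77 and 400, DESeq2 276, 160, 120, 76 and 417, and TMM-scaled levels 405, 400, 30, 66 and 608. One model of all mice gave 223, 140, 106, 29 and 293. At FDR<5% there were 59, 48, 20, 21 and 161, and with a difference above 5 percentage points 84, 85, 27, 19 and 182. Leaving out junctions with unexpected zeros gave 74, 77, 23, 21 and 176. No limit on the share or the reads at the site (168, 146, 50, 52 and 352) and 50 reads per mouse (151, 126, 45, 42 and 332) stayed within 1.5 times. Leaving out each mouse gave 66 to 108, 56 to 124, 20 to 45, 21 to 34 and 196 to 297, and 0 to 0 for the interaction.

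The pooled share of 1.839% was 0.825% over all junctions of the class, 2.906% as a median and 1.865% without Chi3l3. Over all junctions of the class, Veh_WT and Veh_MUT mice overlapped. For the list made for 5′ splice site recognition, with the 3′ site factors it holds, DESeq2 called 4 (sudemycin in U2AF1(WT)) and 12 (in U2AF1(S34F)). No filter called 1 in U2AF1(WT), and leaving out each mouse gave 14 to 23, 13 to 19, 1 to 4, 3 to 9 and 27 to 33.

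Same-numbered mice did not deviate together (correlations -0.0145 to 0.0186), so no pairing by number was seen. Correlations pooled over many junctions cannot exclude a pairing that touches few of them. A replicate block gave 104 and 184 junctions, and 18 and 13 genes, in the genotype comparisons. The difference in share of the 4932438A13Rik site at 36761063 (mutation plus sudemycin), on a scale of 0 to 1, reversed to -0.3278 where its reads were set against annotated junctions alone. The level of the Naip5 junction reversed on the log2 scale to -0.8617 under vehicle and -0.6612 (mutation plus sudemycin). The causes were not tested. Zeros at 10 expected reads limit what a low share can show.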
